A study of Mus musculus with 4 samples.

Results

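Laminins and the proteins that join them into basement membranes were examined in mouse bone marrow-derived mesenchymal stem cells (mBMSCs) after depletion of ZBP1. The 10 genes are those whose symbol in the FPKM table is Lama2, Lama4, Lama5, Lamb1, Lamb2, Lamc1, Nid1, Nid2, Hspg2 or Agrn, out of 24346 rows, and each of them has 1 row with a value above 0 in every sample. Primary mBMSCs came from the femoral marrow of wild-type C57BL/6 mice aged 3 months (C57BL/6J in the study's methods), were freed of nonadherent cells by washing, and were transfected with Lipofectamine RNAiMAX. The control group received scrambled siRNA (siScr, 2 samples) and the other group siRNA against ZBP1 (siZBP1, 2 samples). RNA was collected 72 h after transfection in both groups, with no osteogenic or adipogenic medium named for these samples. The comparison asks which transcripts change when ZBP1, a cytosolic sensor of Z-form nucleic acids, is reduced. The methods speak of duplicated mBMSCs and do not say whether duplicates came from separate mice or cultures, so the p-values measure only the spread between these samples, which may be technical. Which of the study's siRNAs was used for sequencing is not given in the sources used here.

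Laminins are trimers of an α, a β and a γ chain that assemble into a sheet on the cell surface. Nidogens link this sheet to type IV collagen, and the heparan sulfate proteoglycans perlecan (Hspg2) and agrin (Agrn) bind to it and store growth factors. Cells hold on to laminin through integrins and through dystroglycan, whose sugar chains bind the laminin α chains. In bone marrow, laminins with the α4 and α5 chains are known from the walls of sinusoids and arterioles and from the stromal cells around them.

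The values are FPKM, that is fragments scaled to transcript length and to sequencing depth, so that levels of genes of different length can be set side by side. Zbp1 itself was at 86.0 and 62.0 FPKM in the siScr samples and at 11.5 and 11.6 FPKM in the siZBP1 samples, with a log2 fold change of -2.56 (limma standard error 0.16, adjusted p = 0.00322), in the direction of the labels. Without siZBP1 replicate 1 or replicate 2 the adjusted p of Zbp1 was 0.0618 and 0.0510 in limma. Summed FPKM per sample lay between 477974 and 492166. The numbers of reads are not given in the sources used here, and the spacing of the lowest values put the relative depth at 1.40 and 1.86 for the siScr samples and at 1.00 and 1.61 for the siZBP1 samples. Limma was applied to log2(FPKM + 1) of the 11959 genes with a mean of at least 1 FPKM, with Benjamini-Hochberg adjustment over all of them and a threshold of 0.05. For a single value compared between 2 and 2 samples, the smallest two-sided p of an exact permutation test is 0.33.

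Of the 10 genes, 9 reached the mean of 1 FPKM and were tested. In ZBP1-depleted mBMSCs 7 of these 9 fell by limma, 0 rose and 2 did not pass the threshold, whereas 14.8% of all tested genes were called lower and 13.5% higher. The genes that fell were Nid1, Lama5, Lamb2, Lama4, Nid2, Hspg2 and Lamc1, and those that did not pass were Lamb1 and Agrn. In bulk RNA, fewer cells of a type and less of a transcript per cell cannot be told apart, and the stromal markers described at the end were lower too, with a median log2 fold change of -0.53. Relative to those markers, in a scaling added after the data were seen, Nid1, Lama5 and Lamb2 were called lower and Lamb1 and Agrn higher. The signs of Lamc1, Hspg2 and Agrn turned positive. Of the 11959 tested genes this scaling called 397 lower and 8013 higher, so most genes were called higher in it. The calls of the 7 genes rested on both siZBP1 samples, since without siZBP1 replicate 1, and likewise without siZBP1 replicate 2, 1 of the 7 stayed past the threshold, Nid1 in both cases (all tested genes called lower were then 48 and 113, of 1766). Over the 9 genes the log2 fold changes had a median of -0.60, against 0.00 for all tested genes. By the ratio of the group means, 6 of the 10 were lower by over 1.5-fold (13.8% of the 16281 genes with both means above 0) and 0 were higher. Both siZBP1 samples lay below both siScr samples for 8 of the 9 tested genes, an arrangement found in 33.7% of all tested genes. Within a group the replicates of a gene differed by at most 1.60-fold in siScr cells and 1.41-fold in siZBP1 cells, and Lama2, the lowest of the genes, set both limits.

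**Figure D1:**
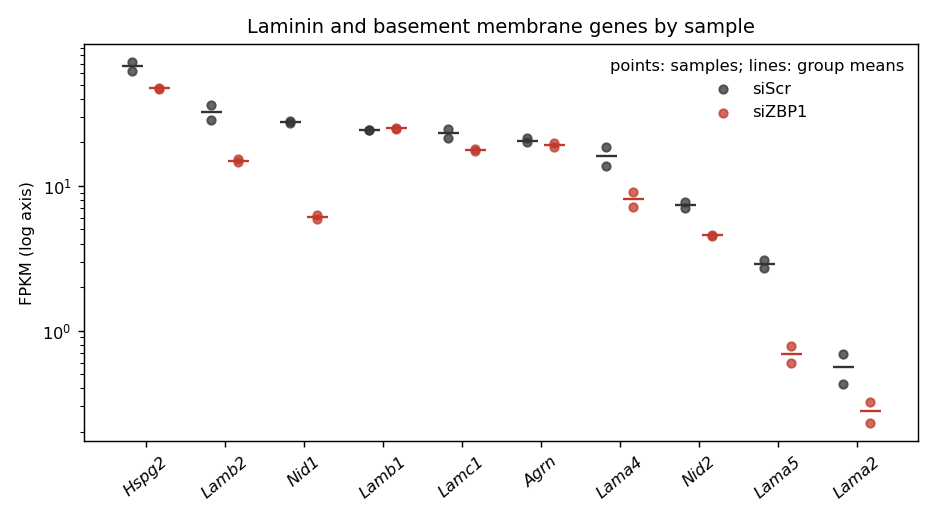
FPKM (log axis) of the 10 genes in each sample, ordered by their siScr mean, with 1 point per sample and a line at each group mean (n = 2 per group). Nid1 shows the widest gap between the groups, from 27.8 to 6.09 FPKM, while the points of Lamb1 lie between 24.4 and 25.3 FPKM in all samples.

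Among the nidogens, the linkers of the laminin sheet to type IV collagen, Nid1 had the largest fall of all members. Nid1 was at 28.2 and 27.4 FPKM in siScr cells and at 5.89 and 6.29 FPKM in siZBP1 cells. The replicates lay close together and the groups were far apart, with means of 27.8 ± 0.541 and 6.09 ± 0.279 FPKM (SD, n = 2 each), a 4.56-fold lower level. Nid1 fell by 2.02 on the log2 scale (standard error 0.06, limma adjusted p = 0.00150), and with any one sample left out it stayed past the threshold. Nid2, the second nidogen, was at 7.80 and 7.09 FPKM in siScr cells and at 4.54 and 4.61 FPKM in siZBP1 cells. Its groups did not overlap either, and it fell less, by 0.60 on the log2 scale (standard error 0.08, limma adjusted p = 0.0113). Nid1 made up 78.3% and 79.5% of the summed nidogen FPKM in the siScr samples and 56.5% and 57.7% in the siZBP1 samples. Its share was 21.8 percentage points lower (exact permutation p = 0.33, two-sided, the smallest that this design allows, and 0.417 adjusted over the 5 shares tested).

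The Nid1 gene spans chr13:13437551-13512269 (GRCm38, plus strand) and has 20 exons in its annotated coding transcript. Its exons share 143 bases with those of Gm48682, an antisense gene, and the exons of Nid2 share 437 bases with those of the opposite-strand gene Rtraf. Whether the counting used strand is not stated, so reads from these stretches cannot be assigned to either gene. The annotated exons of Nid2 cover 5174 bases. The effect of the overlaps on the levels of Nid1 and Nid2 and on the nidogen shares was not tested.

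Of the β chain genes, Lamb2 fell and Lamb1 did not pass the threshold. Lamb1, which encodes the widespread β1 chain, was at 24.4 and 24.5 FPKM in siScr cells and at 25.3 and 24.9 FPKM in siZBP1 cells. The siZBP1 values were slightly above the siScr values, and the difference did not pass the threshold, with a limma log2 fold change of 0.04 (95% interval -0.08 to 0.16, adjusted p = 0.571). Lamb2, which encodes the β2 chain best known from the neuromuscular junction and the kidney filter, was at 36.1 and 28.7 FPKM in siScr cells and at 15.3 and 14.6 FPKM in siZBP1 cells. The groups were separate, and Lamb2 fell from 32.4 ± 5.24 to 14.9 ± 0.529 FPKM (SD, n = 2 each), by 1.06 on the log2 scale (standard error 0.12, limma adjusted p = 0.00779). Lamb2 was the higher of both β chains in each siScr sample and the lower in each siZBP1 sample. Its share of their summed FPKM was 59.7% and 54.0% in siScr cells and 37.7% and 36.9% in siZBP1 cells, a difference of -19.5 percentage points (exact permutation p = 0.33, two-sided, 0.417 adjusted over the 5 shares).

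The γ1 chain, encoded by Lamc1, is the partner shared by most laminins. Lamc1 was at 24.8 and 21.5 FPKM in siScr cells and at 17.5 and 17.9 FPKM in siZBP1 cells. Lamc1 had the smallest fall of the 7 called genes (log2 fold change -0.37, standard error 0.08, limma adjusted p = 0.0344). This call was lost without the filter on low values (limma adjusted p = 0.0503) and without the variance trend (limma adjusted p = 0.0556). The summed β chains stood at 2.43 and 2.47 times the level of Lamc1 in siScr cells and at 2.32 and 2.20 times in siZBP1 cells. These ratios did not overlap between the groups, and all lay between 2.20 and 2.47.

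The α chains, which carry the cell-binding domains, had the lowest summed level of the laminin chain classes in every sample. Lama4, the α4 chain of vessel walls, fat and stroma, was at 18.6 and 13.7 FPKM in siScr cells and at 7.13 and 9.11 FPKM in siZBP1 cells. Its siScr replicates differed by 1.36-fold and its siZBP1 replicates by 1.28-fold, and the groups did not overlap. Lama4 fell by 0.90 on the log2 scale (standard error 0.18, limma adjusted p = 0.0271), and without siScr replicate 1 the value was -0.69 and did not pass (limma adjusted p = 0.0865). Lama5, the broadly acting α5 chain of mature basement membranes, was at 3.08 and 2.69 FPKM in siScr cells and at 0.599 and 0.781 FPKM in siZBP1 cells. The siZBP1 samples held a 4.18-fold lower mean level, and Lama5 fell by 1.20 on the log2 scale (standard error 0.13, limma adjusted p = 0.00763). On this scale the added 1 FPKM damps the fall of so low a gene, and with a pseudocount of 0.1 the log2 fold change was -1.92. Lama2, the α2 chain of muscle and nerve, was at 0.427 and 0.685 FPKM in siScr cells and at 0.322 and 0.229 FPKM in siZBP1 cells. Its values did not overlap between the groups, but its mean was under the filter, and without a filter its limma log2 fold change of -0.28 did not pass (adjusted p = 0.150). Exons of Lama2 share 631 bases with those of an antisense gene, Gm48084.

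Among the member α chains Lama2, Lama4 and Lama5, Lama4 made up most of the summed FPKM in each sample. Its share was 84.1% and 80.2% in siScr cells and 88.6% and 90.0% in siZBP1 cells, and that of Lama5 was 13.9% and 15.8% against 7.44% and 7.72%. Both shares were separate between the groups (exact permutation p = 0.33 each, two-sided, 0.417 adjusted over the 5 shares). The share of Lama2, between 1.93% and 4.02% in the 4 samples, overlapped between the groups (exact permutation p = 1.00, two-sided). With the α chains outside the members added to the sum, Lama4 held 80.4% and 76.2% in siScr cells and 83.2% and 85.7% in siZBP1 cells. Relative to Lamc1, the summed member α chains stood at 0.890 and 0.792 in siScr cells and at 0.459 and 0.565 in siZBP1 cells. These ratios were below 1 in every sample and did not overlap between the groups.

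**Figure D2:**
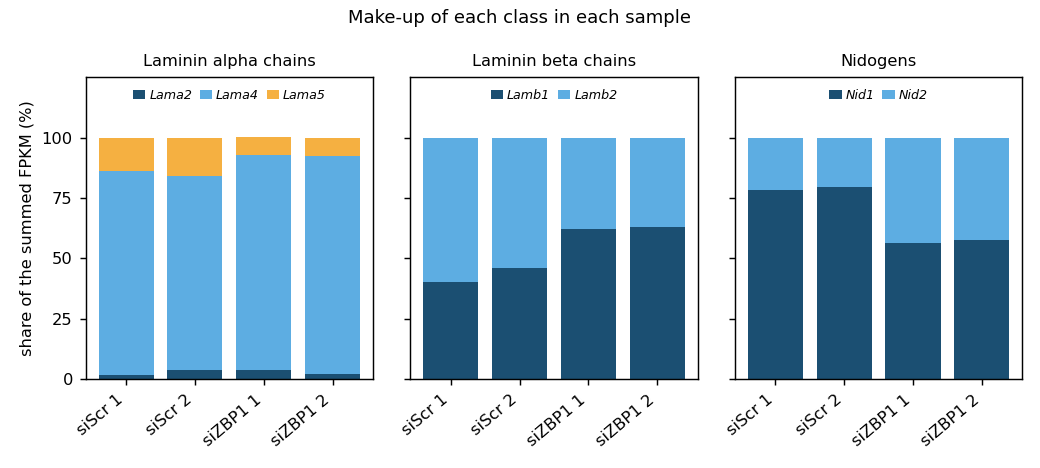
Share (%) of each gene in the summed FPKM of the members of its class, as stacked bars for each of the 4 samples. The classes are laminin α chains, laminin β chains and nidogens. Lamb2 held 59.7% and 54.0% of the β chains in siScr cells and 37.7% and 36.9% in siZBP1 cells, and Nid1 held 78.3% and 79.5% of the nidogens against 56.5% and 57.7%.

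Of the proteoglycans, Hspg2 encodes perlecan, a large heparan sulfate proteoglycan that binds nidogen and laminin. Hspg2 was at 71.9 and 62.8 FPKM in siScr cells and at 47.1 and 47.8 FPKM in siZBP1 cells, which made it the highest member in every sample. It fell from 67.3 ± 6.40 to 47.4 ± 0.459 FPKM (SD, n = 2 each), by 0.49 on the log2 scale (standard error 0.07, limma adjusted p = 0.0139). The ratio of Hspg2 to Lamc1 was 2.90 and 2.92 in siScr cells and 2.69 and 2.67 in siZBP1 cells, with no overlap between the groups. Agrn encodes agrin, the proteoglycan that clusters receptors at the neuromuscular junction through the receptor LRP4. Agrn was at 20.0 and 21.3 FPKM in siScr cells and at 19.7 and 18.5 FPKM in siZBP1 cells. Although these ranges did not overlap, the difference did not pass the threshold, with a limma log2 fold change of -0.11 (95% interval -0.27 to 0.06, adjusted p = 0.264).

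**Figure D3:**
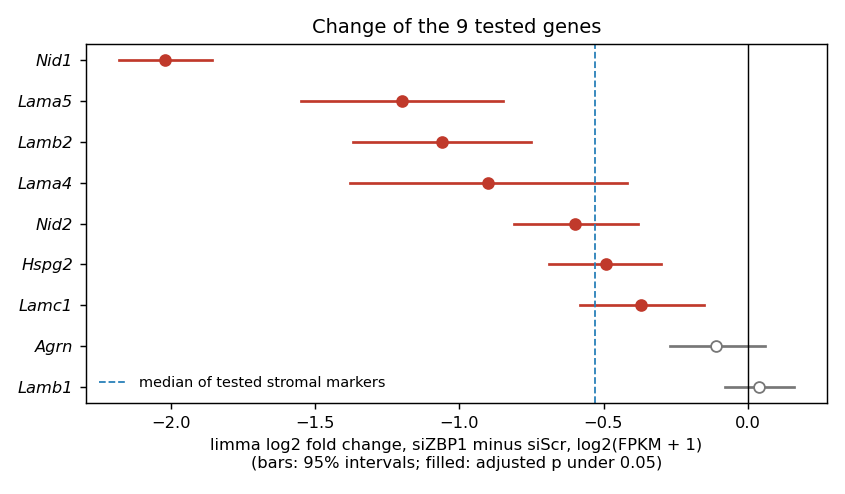
Limma log2 fold change (siZBP1 minus siScr, on log2(FPKM + 1)) of the 9 tested genes with 95% intervals, filled where the adjusted p is under 0.05, with a dashed line at the median of the tested stromal markers (-0.53). The values run from -2.02 for Nid1 to 0.04 for Lamb1, and the intervals of Lamb1 and Agrn are the ones that include 0.

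The order of levels changed accordingly. In siScr cells the means ran from Hspg2 through Lamb2, Nid1, Lamb1, Lamc1, Agrn, Lama4, Nid2 and Lama5 to Lama2. The samples of neighbours overlapped only for Lamb1 and Lamc1, with 2 samples behind each range. In siZBP1 cells the order was Hspg2, Lamb1, Agrn, Lamc1, Lamb2, Lama4, Nid1, Nid2, Lama5 and Lama2, and no neighbours overlapped. Nid1 thus moved from rank 3 to rank 7 and Lamb2 from rank 2 to rank 5. Profiles like that of Nid1 were sought among the tested genes outside the members and all lists used here. By the smallest root mean square distance of the centred log2(FPKM + 1) profile over the 4 samples, these were Lmod1 (distance 0.0643), Lrrc32 (0.0740) and Bmp4 (0.0897). Lmod1 encodes leiomodin, an actin regulator of smooth muscle, Lrrc32 a surface protein that holds latent TGF-β, and Bmp4 a bone morphogenetic protein. With 4 samples in 2 groups, such a distance mainly sets genes with a like fall side by side.

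Promoter windows of 300 bases, from 250 bases before to 50 after a RefSeq start site on GRCm38.p6, were found for 7 of the 10 genes (8 windows, of which Agrn has 2). Those of Nid1, the gene with the largest fall, of the β chain genes, of which 1 was called, and of Agrn, which was not called, are shown. Capitals mark matches to the GC box, GGGCGG, and to the Wnt response element core that the study searched for at Zbp1, here CTTTGNN with A or T at each N. The study searched a much wider stretch around the Zbp1 start site than these 300 bases, and measured β-catenin there by ChIP. Both strands were searched, overlapping matches were counted separately, and in the windows shown no match to one motif overlaps a match to the other.
Nid1, chr13:13437352-13437651, plus strand: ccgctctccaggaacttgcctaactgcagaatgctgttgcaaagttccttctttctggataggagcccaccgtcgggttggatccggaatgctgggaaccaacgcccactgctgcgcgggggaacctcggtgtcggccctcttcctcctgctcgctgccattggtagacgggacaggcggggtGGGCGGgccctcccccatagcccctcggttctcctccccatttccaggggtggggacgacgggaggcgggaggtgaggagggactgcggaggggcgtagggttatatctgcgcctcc
Lamb1, chr12:31265043-31265342, plus strand: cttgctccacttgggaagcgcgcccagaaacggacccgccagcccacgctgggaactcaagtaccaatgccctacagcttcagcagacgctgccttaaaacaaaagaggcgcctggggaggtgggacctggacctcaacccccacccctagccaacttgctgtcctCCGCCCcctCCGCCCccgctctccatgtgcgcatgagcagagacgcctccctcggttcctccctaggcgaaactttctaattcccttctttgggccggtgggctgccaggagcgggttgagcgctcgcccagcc
Lamb2, chr9:108479612-108479911, plus strand: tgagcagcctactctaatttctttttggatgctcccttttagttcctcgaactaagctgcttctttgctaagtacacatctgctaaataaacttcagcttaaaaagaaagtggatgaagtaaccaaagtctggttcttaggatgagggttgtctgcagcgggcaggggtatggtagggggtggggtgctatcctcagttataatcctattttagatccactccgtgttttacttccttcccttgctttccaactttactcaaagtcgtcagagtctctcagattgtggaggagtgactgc
Agrn, chr4:156197439-156197738, minus strand: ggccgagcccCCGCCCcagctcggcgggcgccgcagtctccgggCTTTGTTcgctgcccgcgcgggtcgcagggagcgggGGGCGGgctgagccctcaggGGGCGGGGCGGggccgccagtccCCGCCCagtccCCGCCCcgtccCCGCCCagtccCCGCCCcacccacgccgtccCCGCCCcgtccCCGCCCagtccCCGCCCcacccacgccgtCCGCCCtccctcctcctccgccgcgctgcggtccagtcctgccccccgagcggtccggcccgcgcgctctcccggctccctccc

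The window of Lamb2 has 44.0% G and C and no GC box, and that of Lamb1 has 63.7% and 2 matches, against a median of 52.7% over all 32851 windows. Nid1 has 64.7% and 1 match to the GC box, and the Agrn window shown has 83.3% and 12 matches. The windows of Lama5 (4 matches), Hspg2 (5 matches) and Lama2 (1 match) also hold a GC box, which 35.7% of all windows do. A Wnt response element core was found in 1 of the 8 windows, that of Agrn shown above, starting 206 bases before the start site, and 16.9% of all windows hold one. These are letter matches in short windows and describe the sequence only.

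The other components of basement membranes were grouped in lists, whose calls also rested on both siZBP1 samples, as without either of them 1 basement membrane collagen and none of the genes of the other 3 lists were called. Of 9 basement membrane collagens, 5 were tested, of which 3 fell and 1 rose (median log2 fold change -0.28, from -1.35 to 0.45), beside 14.8% lower and 13.5% higher among all tested genes. Col4a1, a chain of the main type IV collagen network, fell from 49.3 ± 0.256 to 18.7 ± 0.419 FPKM (SD, n = 2 each), by 1.35 on the log2 scale (limma adjusted p = 0.00152). Col15a1, a collagen of the outer face of basement membranes, fell by 0.77 (limma adjusted p = 0.0130), and Col4a5, another type IV collagen chain, rose by 0.45 (limma adjusted p = 0.0427). The call of Col4a5 was lost without the filter on low values and with a minimum mean of 5 FPKM. Col4a2, singled out after its values were seen, encodes the partner of Col4a1 in the same trimer and starts head to head with it on chromosome 8, where the annotated genes share 22 exonic bases. It fell by 0.28 (limma adjusted p = 0.0242). The ratio of Col4a1 to Col4a2 was 1.23 and 1.27 in siScr cells and 0.591 and 0.569 in siZBP1 cells, with no overlap between the groups.

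Of 22 other laminin chains and basement membrane proteins in the table, 8 were tested, of which 4 fell and 2 rose (median -0.29), against all-gene shares of 14.8% and 13.5%. Npnt, a ligand of integrin α8β1, fell most in this list (log2 fold change -3.01, limma adjusted p = 0.00444), followed by Fbln1, encoding fibulin 1, at -1.17 (limma adjusted p = 0.0103), and by Pxdn, encoding the peroxidase that crosslinks type IV collagen, at -0.98 (limma adjusted p = 0.00700). The added 1 FPKM damps these values for low levels, and by the ratio of the group means Npnt was 22.7-fold and Fbln1 7.12-fold lower. The genes that rose, named here after their values were seen, were Fbln2, encoding fibulin 2, at 0.86 (limma adjusted p = 0.00317) and Ecm1 at 0.52 (limma adjusted p = 0.00616). Robust moderation called 4 genes of this list higher.

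Of 21 genes of laminin, perlecan and agrin receptors and their complexes, 16 were tested, of which 10 fell and 2 rose (median -0.32), where all tested genes gave 14.8% and 13.5%, so that the number that rose was near the background. The largest falls were those of Lrp4, the agrin receptor that also acts in Wnt signaling (log2 fold change -1.44, limma adjusted p = 0.00585), Itga3, the α subunit of a laminin-binding integrin (-1.42, limma adjusted p = 0.00838), and Sgcd, a sarcoglycan of the dystroglycan complex (-1.35, limma adjusted p = 0.0283). By the ratio of the group means Itga3, the lowest of these, was 4.58-fold lower. Those that rose, named after their values were seen, were Itga7, the laminin-binding integrin subunit of muscle (0.79, limma adjusted p = 0.00953), and Cd151, a tetraspanin partner of laminin-binding integrins (0.37, limma adjusted p = 0.00708). Of 13 enzymes that build the laminin-binding sugar of dystroglycan, 12 were tested, 1 fell and 1 rose (median -0.05), neither count above the all-gene shares of 14.8% and 13.5%. B4gat1, which starts the repeat that laminin binds, rose by 0.53 (limma adjusted p = 0.00637), and Large, which extends it, fell by 0.24 (limma adjusted p = 0.0389). Ispd, which makes the ribitol precursor, did not pass, at 0.25 (limma adjusted p = 0.164).

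**Figure D4:**
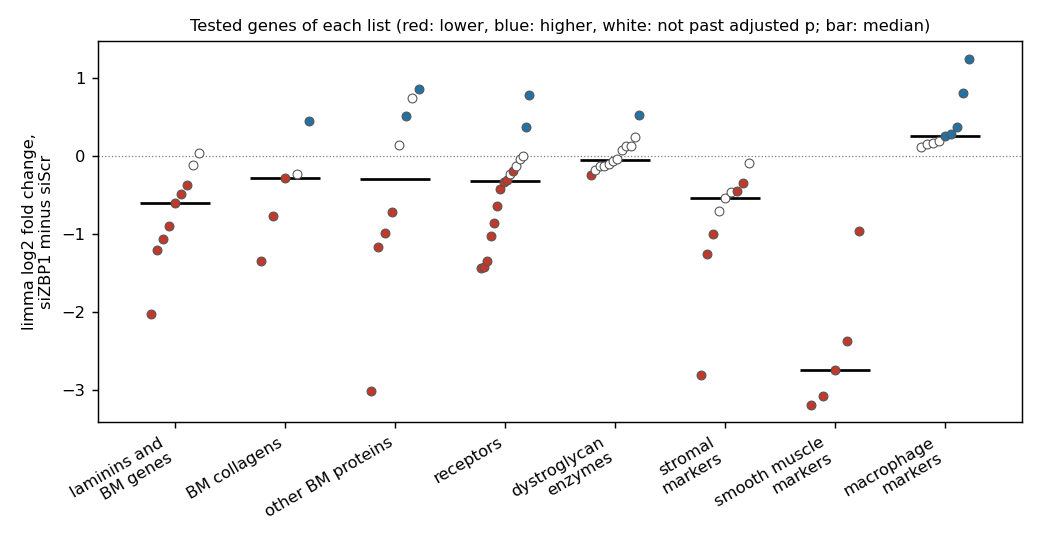
Limma log2 fold change (siZBP1 minus siScr) of each tested gene in 8 lists, with 1 point per gene, red where lower and blue where higher at an adjusted p under 0.05, white otherwise, and a bar at the median. The laminin and basement membrane genes (median -0.60) lie near the stromal markers (median -0.53), above the smooth muscle markers (median -2.74) and below the macrophage markers (median 0.26).

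Markers of more than one cell type were detected, and several of them moved with the groups. Beside the counts of each marker list stand the shares of all tested genes, 14.8% called lower and 13.5% called higher. Of 10 stromal markers 9 were tested, of which 5 fell and 0 rose, from -2.81 for Cxcl12 to -0.09 for Col1a2 on the log2 scale. The summed FPKM of the list was 4680 to 5610 in siScr cells and 3200 to 3240 in siZBP1 cells. Most of this sum came from Col1a1 (means 2790 and 1160 FPKM) and Col1a2 (1950 and 1820 FPKM), so its fall mainly reflects Col1a1. Of 9 macrophage markers all were tested, 5 rose and 0 fell, and their summed FPKM was 4700 to 5580 in siScr cells and 7670 to 8210 in siZBP1 cells. Most of that sum and of its rise came from Lyz2 (means 3230 and 5640 FPKM). Of 8 smooth muscle and pericyte markers 5 were tested and all 5 fell. The sums of this list were 1130 to 1160 FPKM in siScr cells and 176 to 205 FPKM in siZBP1 cells. They rested mainly on Acta2 (means 623 and 120 FPKM), Tagln (308 and 45.6 FPKM) and Actg2 (167 and 19.0 FPKM). The other 3 were under 1 FPKM. Of these, Myh11 was lower and Des and Rgs5 were higher in both siZBP1 samples than in both siScr samples. Of 10 endothelial markers 2 were tested and neither passed, with sums of 10.9 to 11.6 and 10.9 to 11.0 FPKM, and 8 of 10 were under 1 FPKM, Pecam1 and Cdh5 among them. Of 6 Schwann cell markers 2 were tested and both rose, with sums of 33.8 to 34.5 and 48.3 to 49.0 FPKM. Of 8 adipocyte markers 4 were tested, 1 fell and 1 rose, with sums of 390 to 405 and 441 to 464 FPKM. Plin1, Cidec and Lep were at 0 in each sample. The adipocyte sums rested mainly on Lpl (means 226 and 269 FPKM), the gene that rose, and Fabp4 (94.9 and 109 FPKM). Pparg was the gene that fell (means 20.9 and 13.7 FPKM). The 6 epithelial markers were under 1 FPKM, and Krt5, Krt14 and Krt18 were at 0 in each sample. The part of these shifts in the results above was not tested, but the members were also set against the stromal markers, in an alternative added after the data were seen. With each sample centred on its tested stromal markers, 3 members remained lower, Nid1 by 1.47, Lama5 by 0.65 and Lamb2 by 0.51 on the log2 scale. In the same fit Lamb1 (0.59) and Agrn (0.44) were called higher, and Lama4, Lamc1, Nid2 and Hspg2 did not pass the threshold. This scaling rests on 9 genes that themselves range from -2.81 to -0.09, and it calls 8013 of all tested genes higher and 397 lower. With the same samples, the limma adjusted p of Nid1 was 2.4e-12 in this fit and 0.00150 in the main fit. Calls of the 2 fits are therefore not on the same footing, and the reason was not tested.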

How the data were processed

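Per the methods, RNA from siScr and siZBP1 mBMSCs was made into TruSeq libraries, reads were mapped to mm10 with Tophat, and the authors extracted FPKM values with HTSeq, whereas the submitters' processing notes name TopHat and Cufflinks. Annotation, strand and filters are not given in the sources used here. The deposited group means equal the means of the replicates and were not used. Genes averaging 1 FPKM or more over the samples were fitted on log2(FPKM + 1) in limma 3.58.1 under R 4.3.3, using a variance trend and Benjamini-Hochberg adjustment across them, and the procedure was tested on simulated data. A repeated symbol is carried by 4 rows, none of them a member. Shares were compared by exact permutation tests, two-sided. Gene models came from GENCODE M21 (GRCm38) and promoters from RefSeq (GRCm38.p6). The genes, lists and tests were chosen with earlier results of these data known. By rule, the genes named are Zbp1, the 10 members, up to 3 tested genes per list with the largest absolute change, and marker genes at or near 0. The 3 profiles most like the member with the largest fall were also named by rule, from tested genes outside all lists. Col4a2 and the list genes that rose without being among those 3 were named after their values were seen. So were the markers at the ends of the stromal range, the markers that dominate a sum, and the adipocyte marker that fell. The untested smooth muscle and pericyte markers were also named in this way. No member rose past the threshold. Other pseudocounts, filters, scalings, moderation settings, a replicate block and leaving out each sample were tried, with 1 scaling added after the data were seen, and the closing section gives their effect. Matches of the siRNAs to transcripts were not analysed here. A gene among the other basement membrane genes is not reported here, and the unnamed list genes enter only the counts and medians.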

Additional observations from a re-analysis of the deposited data

How the results depend on the processing

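With all samples in the fit and the stromal centring described last left aside, 67 of 69 values of the 7 called members stayed past the limma threshold under the other pseudocounts, filters, scalings and moderation settings (Lamc1 lost the call without the filter, adjusted p = 0.0503, and without the variance trend, 0.0556), and 0 changed sign in these settings or with a sample left out. With a siScr replicate left out 12 of 14 stayed past it, and with a siZBP1 replicate left out 2 of 14 did, both of Nid1, with the lone sample assumed to vary like the other group. Over the samples left out, the count of members called lower ranged from 1 to 7 (1 without siZBP1 replicate 1 and 1 without siZBP1 replicate 2) and their median change from -0.66 to -0.54. Of all tested genes, the calls ranged between 48 and 1467 (lower) and between 22 and 1248 (higher), of 1766 and 1618. In the same fits the basement membrane collagens ranged from 1 to 2 lower and 0 to 1 higher, the other basement membrane proteins from 0 to 3 lower and 0 to 3 higher, the receptors from 0 to 7 lower and 0 to 2 higher, and the dystroglycan enzymes stayed at 0 lower and ranged from 0 to 1 higher. Without the filter 0 collagens were called higher and 0 dystroglycan enzymes lower, and with a minimum mean of 5 FPKM, which leaves fewer genes, 0 collagens and 1 receptor were called higher. With robust moderation 4 other basement membrane proteins were called higher. Quantile normalization, scaling to the same sum and no variance trend each called 0 dystroglycan enzymes lower.

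The replicate number as a block left 7 members lower and 0 higher, with 1654 and 1465 of all tested genes, and changed the dystroglycan enzymes to 0 lower. The deviations of same-numbered samples had a correlation of -0.0630 over tested genes. With 2 samples per group this value cannot show whether same-numbered samples share a mouse, a culture or a batch, which the sources do not state.

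Centring on the stromal markers, added after the data were seen, gave 3 members lower and 2 higher with a median of -0.05, turned Lamc1 (0.18), Hspg2 (0.06) and Agrn (0.44) positive, and left Lama4, Lamc1, Nid2 and Hspg2 uncalled (adjusted p between 0.0921 and 0.830). It called 1 collagen lower and 1 higher, 3 other basement membrane proteins lower and 4 higher, 3 receptors lower and 5 higher, and 0 dystroglycan enzymes lower and 9 higher, with 397 and 8013 of all tested genes. By construction this scaling adds the same amount to every gene of a sample. For the other settings the cause was not tested. Read counts are not given, so counting error could not be separated from the spread between 2 samples.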
